A study of Mus musculus with 6 samples.

Results

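Expression of 9 genes of haem synthesis, haem binding and iron transport was compared in the mouse lung cancer line 344SQ, with or without knockdown of Pik3ca. They are the haem-binding protein genes Hebp1 and Hebp2, the haem synthesis enzyme genes Alas1, Alad, Urod, Cpox and Fech, and the iron transport genes Tfrc and Slc40a1. A probe set, which is a group of short array probes reporting 1 transcript, was assigned to a gene where the platform annotation gave that gene's symbol alone. All 9 genes were found, among 18193 measured genes, with 25 probe sets in all. Hebp1 was chosen by its rise after knockdown, which was among the largest measured. The values of Hebp1 are therefore given as a description with no test. The other 8 were chosen for their roles, with earlier results of these data known.

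The groups were 3 samples of 344SQ cells with a control short hairpin RNA (shRNA) and 3 samples with an shRNA against Pik3ca, which encodes the catalytic p110-alpha subunit of phosphoinositide 3-kinase. All samples came from this single line grown in RPMI medium with serum, and the hairpin vectors were brought in with a lipid reagent. Each sample was read on 1 Affymetrix array as linear intensities. Precision is limited by the number of arrays. Separate cultures are not stated in the labels, so p-values reflect only how far these samples scatter, and that scatter may be technical. In bulk RNA, fewer cells making a transcript and less of it per cell cannot be told apart. The hairpin sequences and any selection are not given in the sources used here.

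Haem is built from glycine and succinyl-CoA by enzymes that work partly in the mitochondrion and partly in the cytosol, and the last of them inserts iron into the porphyrin ring. Cells take up iron bound to transferrin through the transferrin receptor, store it in ferritin and release it through ferroportin. Much of this control acts on messenger stability, translation and protein turnover, which an expression array reads only in part.

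Pik3ca, the targeted gene, read 2450, 2324 and 2364 in the control samples and 1249, 1237 and 1220 in the PIK3CA shRNA samples, which do not overlap. Its mean in the knockdown was 51.9% of control. The median intensity of the arrays lay between 134.557 and 134.991. Pearson's r across probe sets was 0.982 to 0.984 within groups and 0.974 to 0.977 between them. Of 8 epithelial markers, 5 were above the median gene intensity of 250.6 (Cdh1, Krt8, Krt18, Krt19 and Epcam), and Cldn4, Cldn7 and Esrp1 were below it. Of 5 lung lineage markers 1, Sftpb, was above it. Of 12 erythroid markers, 9 were measured and none passed the test described below, with a summed intensity of 889 to 923 in control and 781 to 955 in PIK3CA shRNA samples. Of 10 macrophage markers, 2 passed, Cd14 and Mrc1, both higher, and the summed intensity was 3201 to 3335 against 4300 to 4795. The defining leukocyte gene Ptprc read 63.2 ± 28.7 in control and 58.6 ± 7.41 in the knockdown (SD, n = 3 each). Of 7 hepatocyte markers, Ttr and Apoa1 were higher, with a summed intensity of 378 to 463 against 478 to 622, and of 7 fibroblast markers Dcn was lower, with sums of 668 to 684 against 455 to 748. Over all genes 11.5% passed, 5.88% higher and 5.62% lower. No marker was at 0, and the part of these cell type markers in the results was not tested.

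Hebp1 encodes a small cytosolic protein that binds haem and other tetrapyrroles, and a peptide cut from its start attracts leukocytes. Its single probe set read 20.4, 11.1 and 12.4 in the control samples and 383, 368 and 348 in the PIK3CA shRNA samples. The lowest knockdown value lay far above the highest control value. The means were 14.6 ± 5.03 and 366 ± 17.5 (SD, n = 3 each), a ratio of 24.99. On the log2(intensity + 16) scale, where 16 is a constant added to steady dim values, the difference was 3.65, and it ranked 9 among the rises of 18193 genes. The constant matters here because the control values of Hebp1 are near it. With a constant of 1 the difference was 4.597, and with 64 it was 2.45. The deposited table holds no detection calls, and 15.0% of the values on an array lie under 16, so the control level of Hebp1 is known only as dim.

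Among genes whose brighter group mean exceeded the median gene intensity of 250.6, those following Hebp1 most closely were Calml4, Sim2 and Slc43a3. The members and genes with clone-type names were left out. All 3 genes passed the brightness filter through the PIK3CA shRNA group alone. The measure below favours genes with a rise of similar size, so the likeness is a description only. Likeness was measured over the 6 arrays as the root mean square difference between log2 values, each taken relative to the gene's own control mean. It was 0.06 for Calml4, a calmodulin-like gene, and 0.07 for both Sim2, a transcription factor gene, and Slc43a3, a transporter gene. All were dim in control, at 46.8, 48.8 and 5.12, and read 778, 815 and 254 in the PIK3CA shRNA samples. The likeness depends on the constant added. With a constant of 1 the differences were 4.03 for Calml4, 4.06 for Sim2 and 5.43 for Slc43a3 against 4.597 for Hebp1, and with 64 they were 2.92, 2.97 and 2.20 against 2.45.

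Hebp2, the close relative of Hebp1 also known as SOUL, did not pass the test in any probe set. Its brightest probe set read 295, 189 and 256 in control and 232, 310 and 140 in PIK3CA shRNA samples, so the groups overlapped across most of their range. The difference was -0.15 on the log2 scale, with a 95% interval of -0.91 to 0.60 (limma over all genes, adjusted p = 0.806). The interval includes changes of considerable size either way, and without PIK3CA shRNA replicate 3 the difference was 0.13. The other Hebp2 probe sets were dim, at 75.8 ± 16.1 against 69.6 ± 2.79 and at 26.2 ± 20.6 against 24.3 ± 22.4 (SD, n = 3 each). In the dimmest, replicate 1 of each group read about 50, and the other 4 samples read between 11.2 and 15.8.

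Among the 8 members other than Hebp1, limma with Benjamini-Hochberg adjustment over all genes called 1 higher, Alas1, and 1 lower, Urod, at an adjusted p of 0.05. The other 6 did not pass. Over all 18193 genes 11.5% were called, 5.88% higher and 5.62% lower. The median difference was -0.11 over these 8 members and -0.01 over all genes. Alas1 kept its call without control replicate 1, and neither Alas1 nor Urod kept it without control replicate 2 or 3 or without PIK3CA shRNA replicate 1, 2 or 3.

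**Figure D1:**
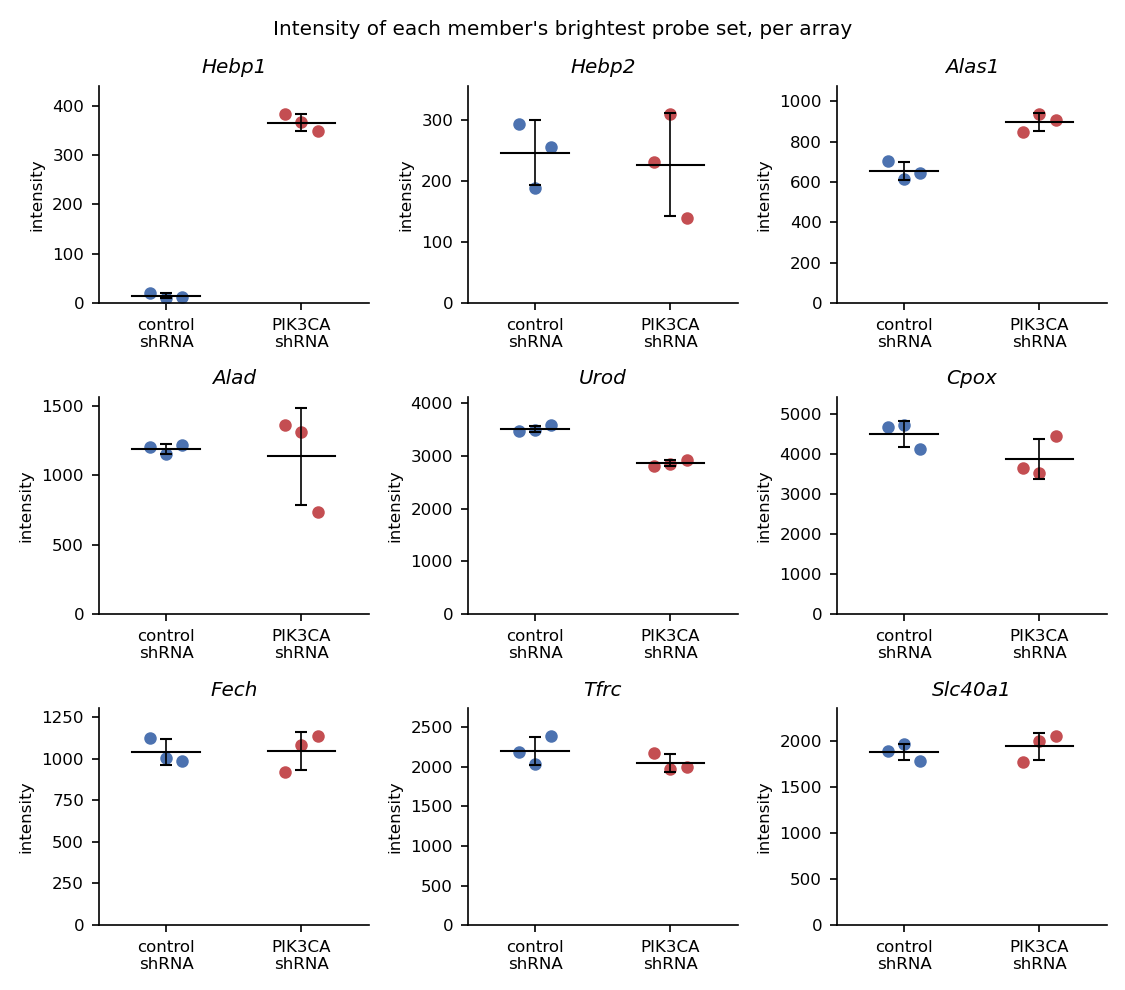
Intensity (linear, vertical axes from 0) of the brightest probe set of each of the 9 genes in 3 control shRNA (blue) and 3 PIK3CA shRNA (red) samples; bars are the mean and whiskers 1 SD. Hebp1 and Alas1 are higher and Urod is lower in every knockdown sample than in any control sample, while the groups overlap for the other 6 genes.

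The sequences just before the start sites of Hebp1, Alas1 and Urod are shown because these are the members whose groups did not overlap by the brightest probe set. Each is the 250 bases upstream of the outermost RefSeq start, in assembly GRCm38.p6, on the minus strand. They lie at chr6:135168216-135168465 for Hebp1, chr9:106247955-106248204 for Alas1 and chr4:116994414-116994663 for Urod. Capitals mark matches, on either strand, to the E-box CACGTG, to the GC box GGGCGG and to the CCAAT box, which read CCGCCC and ATTGG where they lie on the other strand.
Hebp1: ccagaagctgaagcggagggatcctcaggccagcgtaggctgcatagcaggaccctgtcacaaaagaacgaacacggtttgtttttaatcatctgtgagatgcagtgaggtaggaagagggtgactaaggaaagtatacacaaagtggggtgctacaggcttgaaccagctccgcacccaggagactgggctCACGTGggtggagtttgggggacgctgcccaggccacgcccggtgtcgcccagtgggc
Alas1: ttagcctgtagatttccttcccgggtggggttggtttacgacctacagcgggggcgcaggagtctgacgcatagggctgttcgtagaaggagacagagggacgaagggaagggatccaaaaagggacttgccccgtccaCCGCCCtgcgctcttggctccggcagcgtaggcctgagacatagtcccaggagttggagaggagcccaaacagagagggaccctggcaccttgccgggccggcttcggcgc
Urod: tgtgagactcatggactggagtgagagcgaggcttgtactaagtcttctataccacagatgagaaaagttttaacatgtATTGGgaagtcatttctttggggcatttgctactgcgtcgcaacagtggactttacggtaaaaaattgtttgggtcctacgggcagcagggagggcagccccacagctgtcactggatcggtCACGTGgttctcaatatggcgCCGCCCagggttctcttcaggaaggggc
Hebp1 and Urod both hold the E-box, a palindrome bound by basic helix-loop-helix factors such as MYC and USF, ending 53 and 44 bases before the start. It was found in 3 of the 7 member windows searched, the remaining 1 being Alad, and in 6.02% of all 32851 windows of this length. The GC box was in 4 of the 7, against 32.7% of all windows, and CCAAT in 3, against 33.8%. The FOXO motif GTAAACA, the NRF1 motif, the AP-1 motif TGACTCA and the antioxidant response element TGACNNNGC had no match in the 7 windows, and matched 3.17%, 0.782%, 4.46% and 10.2% of all windows. The 7 windows held 8 to 25 CG pairs and 50.8% to 64.8% G and C, against medians of 6 and 52.4% over all windows. All windows include every listed start of a gene, while each member had only its outermost. The shares were not matched for either, so they do not show an excess of any motif. The matches overlapped no other motif searched, and they are letters in a window, not measured binding.

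Alas1 encodes aminolevulinate synthase, the first and rate-limiting enzyme of haem synthesis outside red cells. It read 701, 615 and 644 in control and 849, 935 and 908 in PIK3CA shRNA samples. Every knockdown value was above every control value. The mean rose from 654 ± 43.8 to 897 ± 44.0 (SD, n = 3 each), to 137% of control, a difference of 0.45 (SE 0.08, limma adjusted p = 0.0212). The second Alas1 probe set, of a type whose probes can also match other sequences, read 202, 106 and 102 in control and 187, 149 and 185 in the knockdown. Its difference was 0.37, with an interval of -0.28 to 1.02, and control replicate 1 lay above all knockdown samples while control replicates 2 and 3 lay below them. The call on Alas1 did not last when any of 5 samples was left out: the limma adjusted p was 0.0706 and 0.0724 without control replicates 2 and 3, and 0.0521, 0.0676 and 0.0785 with PIK3CA shRNA replicate 1, 2 or 3 left out in turn. Without control replicate 1 the call held. The adjusted p was 0.183 for the mean of both probe sets and 0.491 for the second probe set alone, and ran from 0.00338 to 0.491 over all alternatives. The difference stayed between 0.37 and 0.50.

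Alad encodes the enzyme that joins aminolevulinate molecules into porphobilinogen, the step after Alas1. Its brightest probe set read 1202, 1153 and 1218 in control and 1360, 1314 and 735 in PIK3CA shRNA samples. PIK3CA shRNA replicates 1 and 2 were above all controls and replicate 3 was well below them. The difference was -0.12 (95% interval -0.73 to 0.49, limma adjusted p = 0.817), and without PIK3CA shRNA replicate 3 it turned to 0.17 (adjusted p = 0.268). The other Alad probe set read 145, 128 and 154 in control and 284, 48.6 and 36.0 in the knockdown, with replicate 1 above and replicates 2 and 3 below all controls. The spread of the knockdown samples was therefore wide in both probe sets, and they place replicate 2 on opposite sides of the controls.

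Urod encodes uroporphyrinogen decarboxylase, a cytosolic enzyme midway along the pathway. It read 3477, 3495 and 3580 in control and 2805, 2850 and 2930 in PIK3CA shRNA samples, with no overlap. The mean fell from 3517 ± 55.0 to 2862 ± 63.3 (SD, n = 3 each), to 81.4% of control, a difference of -0.30 (SE 0.05, limma adjusted p = 0.0256). This probe set is also of the type that can match other sequences. The second Urod probe set read 764, 934 and 719 in control and 938, 570 and 602 in the knockdown, and PIK3CA shRNA replicate 1 was above all controls. Leaving out any single sample ended the call on Urod, with adjusted p-values of 0.0757, 0.0814 and 0.0812 without control replicates 1, 2 and 3, and 0.0897, 0.0756 and 0.0751 with PIK3CA shRNA replicate 1, 2 or 3 left out in turn. The adjusted p was 0.240 for the mean of both probe sets, and all alternatives ran from 0.00107 to 0.642, with differences between -0.31 and -0.22.

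Cpox encodes coproporphyrinogen oxidase, which works in the mitochondrial intermembrane space. Its brightest probe set read 4686, 4727 and 4137 in control and 3668, 3528 and 4459 in PIK3CA shRNA samples. Only PIK3CA shRNA replicate 3 reached into the control range. The difference was -0.22, with an interval of -0.51 to 0.06 (limma adjusted p = 0.298). The second probe set did not overlap between groups, at 869 ± 145 against 683 ± 56.0 (SD, n = 3 each), and its difference of -0.33 did not pass in the fit over all probe sets (adjusted p = 0.261). The third and dimmest read 131 ± 27.8 against 122 ± 12.2. All 3 Cpox probe sets were lower on average in the knockdown, none past the threshold.

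Fech encodes ferrochelatase, which inserts iron into protoporphyrin to complete haem. Its brightest probe set read 1128, 1008 and 987 in control and 919, 1085 and 1136 in PIK3CA shRNA samples, and the groups overlapped across most of their range. The difference was 0.00 with a 95% interval of -0.26 to 0.26 (limma adjusted p = 0.986). Another probe set read 759, 875 and 794 in control and 732, 749 and 715 in the knockdown. These groups did not overlap, and the difference of -0.14 did not pass (adjusted p = 0.417 in the fit over all probe sets). A further probe set was at -0.11, and the last was at 13.2 ± 5.23 against 11.8 ± 1.54 (SD, n = 3 each), too dim to order.

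Tfrc encodes the transferrin receptor, through which cells take up iron. Its brightest probe set read 2191, 2034 and 2388 in control and 2180, 1972 and 2003 in PIK3CA shRNA samples. The groups overlapped, and the difference was -0.10 with an interval of -0.31 to 0.11 (limma adjusted p = 0.528). The other tested Tfrc probe sets differed by 0.00 and 0.01, with intervals of -0.46 to 0.46 and -0.39 to 0.41. The array also carries 3 Affymetrix control probe sets along the Tfrc transcript, left out of the tests, and their differences were 0.01 at the 3′ end, 0.10 in the middle and 0.09 at the 5′ end. The ratio of the 3′ to the 5′ control probe set, a sign of how far along the transcript labelling reached, was 2.34 to 3.61 in control and 2.32 to 2.78 in the knockdown, so it did not separate the groups.

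Slc40a1 encodes ferroportin, the exporter of iron from cells. Its brightest probe set read 1889, 1965 and 1787 in control and 1777, 2007 and 2053 in PIK3CA shRNA samples. The knockdown samples held both the lowest and the highest values. The difference was 0.05 with an interval of -0.15 to 0.25 (limma adjusted p = 0.774). The second probe set was at -0.02, from 895 ± 25.3 to 882 ± 53.3 (SD, n = 3 each). Neither the import gene nor the export gene for iron passed in any probe set.

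**Figure D2:**
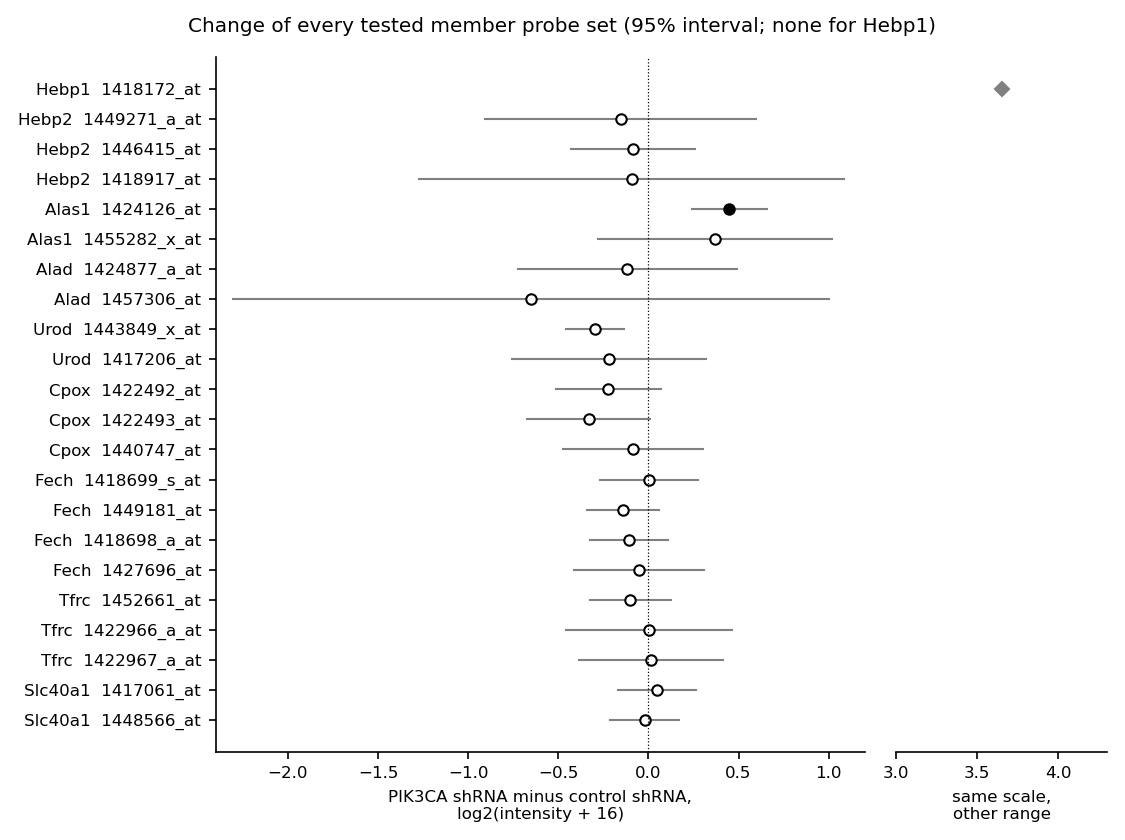
Difference between PIK3CA shRNA and control shRNA (log2(intensity + 16), horizontal axis in 2 ranges) for the 22 tested probe sets; lines are 95% intervals from the limma fit over all probe sets, filled circles passed at adjusted p 0.05, and the grey diamond is Hebp1, shown without an interval. Apart from Hebp1 at 3.65, 1 Alas1 probe set at 0.45 is filled, and most intervals cross 0.

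Of 8 members with several tested probe sets, 5 had the same sign in all of them. Fech, Tfrc and Slc40a1 had both signs close to 0. The share of genes with the same sign throughout was not counted over the whole array, so this is a description only. In the limma fit over all 45037 probe sets, where 4.94% passed (2.64% higher and 2.30% lower), the brighter probe set of Alas1 passed and that of Urod did not (adjusted p = 0.0666). No other tested probe set passed, Hebp1 left aside as chosen for its rise. By the brightest probe set, groups did not overlap in 2 of the 8 genes other than Hebp1, 1 higher and 1 lower, against 33.1% of all genes (16.1% higher and 17.0% lower).

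Genes lying next to the members were described in the same fit, in which 11.5% of all genes were called. Among the 5 tested genes on each side of Hebp1 on chromosome 6, 1 was lower and none higher, and their differences ran from -0.41 to 0.42. The nearest were Gprc5d at -0.26 and Gm19434 at 0.11. Bright genes of chromosome 6 had a median difference of 0.18. With chromosome medians taken out the difference of Hebp1, a gene chosen for its rise, was 3.47. Any part of the chromosome in that rise was not tested. Around Alas1 none of 10 neighbours passed, with Tlr9 at -0.31 and Poc1a at -0.39 on its sides. Around Urod 1 of 10 was lower, and the nearest, Zswim5 and Hectd3, were at 0.10 and -0.15. The other members had more called neighbours in places. Of 10 each, 4 were higher around Slc40a1, 3 higher around Fech, and 1 higher and 2 lower around Alad. Tfrc had 1 higher and 1 lower, Cpox 1 higher, and Hebp2 1 lower, which differed by -3.65.

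**Figure D3:**
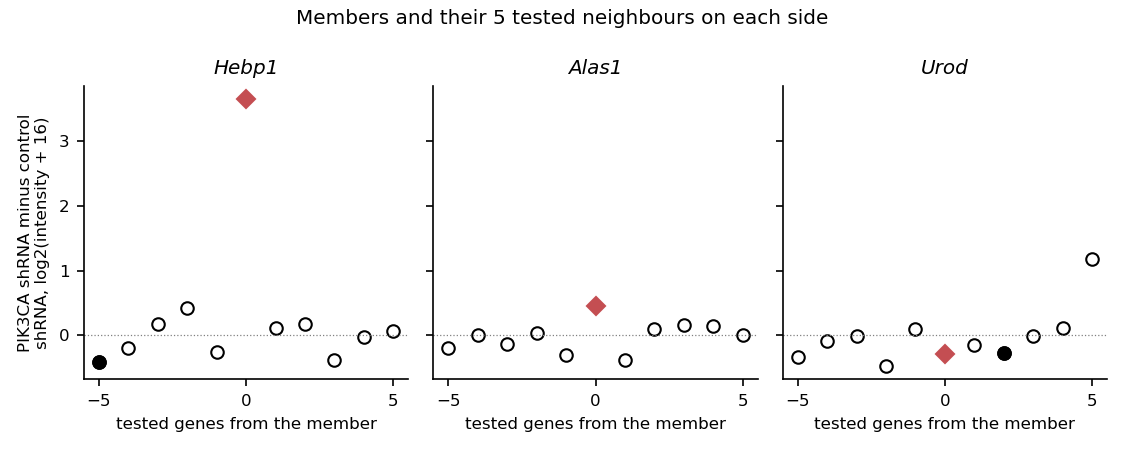
Difference between PIK3CA shRNA and control shRNA (log2(intensity + 16)) of Hebp1, Alas1 and Urod (red diamonds) and of the 5 tested genes on each side in chromosome order (circles, filled where past adjusted p 0.05). The neighbours of Hebp1 lie between -0.41 and 0.42, and 1 of them is filled.

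A wider set of 68 haem and iron genes outside the 9 was described in the same fit, and 63 of them were measured. Of these, 6 were higher and 4 lower, 15.9% against 11.5% of all genes, and their median difference was 0.02 against -0.01. The count of 10 dropped to 6 without control replicate 1, 5 without control replicate 2, 6 without control replicate 3, and 5 without PIK3CA shRNA replicate 1, 2 or 3. It was 6 with chromosome medians taken out, and 20 with dim genes left out of the fit. Counts over all genes moved the same way. They went from 2093 to between 945 and 1138 with 1 sample left out. They were 1567 with chromosome medians taken out and 3156 with dim genes left out, a fit that held fewer genes. None of the 8 measured genes of haem synthesis and porphyrin transport passed. Uros, which closes the porphyrin ring, read 629 ± 21.2 against 700 ± 63.4 (SD, n = 3 each). Ppox, the step between Cpox and Fech, read 365, 335 and 371 in control and 564, 420 and 487 in the knockdown, with no overlap but an adjusted p of 0.0786 (limma). It passed with dim genes left out of the fit (adjusted p = 0.0221) and with an intensity trend and robust prior (0.0399). Its other probe sets were at -0.16 and 0.35, both with overlap, and the mean of its probe sets was at 0.21 (adjusted p = 0.370).

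Genes that degrade, transport, bind or sense haem held 3 rises and no fall among 13, with a median difference of 0.17. Over all genes 5.88% were called higher and 5.62% lower, and the median was -0.01. Abcg2, a membrane pump that exports porphyrins and many drugs, read 110, 120 and 114 in control and 615, 544 and 620 in PIK3CA shRNA samples. It rose 5.19-fold, by 2.22 on the log2 scale (SE 0.08, limma adjusted p = 0.000163), and like Hebp1 it lies on chromosome 6. Hmox2, the constitutive haem oxygenase, rose from 550 ± 39.9 to 851 ± 53.8 (SD, n = 3 each; adjusted p = 0.0110). Bach1, a haem-sensing repressor of transcription, rose from 1378 ± 42.0 to 2009 ± 92.7 (adjusted p = 0.00747). Its second probe set was at 0.40 without overlap and did not pass (adjusted p = 0.128 in the fit over all probe sets). Hmox1, the inducible haem oxygenase that BACH1 represses, read 96.1, 90.0 and 52.7 in control and 42.7, 53.1 and 44.5 in the knockdown, a difference of -0.58 that did not pass (adjusted p = 0.147). It was -0.80 without control replicate 3 (adjusted p = 0.0257), -0.45 without control replicate 1 (adjusted p = 0.306) and -0.32 with chromosome medians taken out (adjusted p = 0.406).

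Of 16 iron transport genes, 1 rose and 1 fell (12.5% called, against 11.5% of all genes). Slc39a8, a metal importer, fell from 645 ± 39.0 to 423 ± 18.8 (SD, n = 3 each), by 0.59 on the log2 scale (limma adjusted p = 0.00814). Its second probe set overlapped between groups, at -0.40, and did not pass (adjusted p = 0.244 in the fit over all probe sets). Lcn2, which binds iron-carrying siderophores, rose from 20.5 ± 8.70 to 50.4 ± 3.44, dim in both groups (adjusted p = 0.0336). Lcn2 did not pass in the fit over all probe sets (adjusted p = 0.0538). Its adjusted p was 0.0777 with the median of chromosome 2 (0.20) taken out, 0.105 and 0.0623 without control replicates 2 and 3, and 0.0899, 0.0940 and 0.107 without PIK3CA shRNA replicates 1, 2 and 3. Slc11a2, the iron importer of endosomes, was at -0.04 (adjusted p = 0.930). Of 14 iron storage and sensing genes, 1 fell and none rose (7.14% called, against 11.5% of all genes). It was Tmprss6, a protease that lowers hepcidin signalling, from 332 ± 58.7 to 150 ± 24.7 (adjusted p = 0.0173, but 0.0626 without control replicate 3 and 0.0548 without PIK3CA shRNA replicate 1).

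The ferritin heavy chain and iron regulatory protein genes did not pass in the main fit. Fth1, the ferritin heavy chain, was at -0.10 (limma adjusted p = 0.337), with a 95% interval of -0.24 to 0.04. It passed with an intensity trend and robust prior (adjusted p = 0.0363). Ireb2 and Aco1, whose products bind iron-responsive elements in messengers such as those of Tfrc and ferritin, were at 0.08 and 0.21 and did not pass (adjusted p = 0.425 and 0.103). Aco1 read 5413, 5173 and 5567 in control and 5934, 6378 and 6425 in the knockdown, with no overlap. It passed with dim genes left out of the fit (limma adjusted p = 0.0265) and with an intensity trend and robust prior (0.0113). Its other probe sets were at 0.26 and 0.31, both with overlap, and the mean of its probe sets did not pass (adjusted p = 0.299). Probe sets of Ftl1 are each annotated with at least 1 further gene and were not used here.

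Of 12 genes of iron-sulphur cluster assembly, 2 rose and 2 fell (33.3% called, against 11.5% of all genes). Nfs1, the cysteine desulphurase that supplies the sulphur, rose from 1556 ± 44.4 to 2152 ± 153 (SD, n = 3 each; limma adjusted p = 0.0177), while its partner gene Lyrm4 fell from 878 ± 97.5 to 642 ± 24.9 (adjusted p = 0.0443). The assembly factor genes Isca2 and Nubp1 moved in opposite directions, by 0.31 and -0.28 (adjusted p = 0.0245 and 0.0272). Nfs1 lies on chromosome 2, and with chromosome medians taken out its difference was 0.27 (adjusted p = 0.0876); in its dimmest probe set the sign turned, at -0.03. For Isca2 and Nubp1 the call ended without any single sample, with adjusted p-values from 0.0666 to 0.0854 and from 0.0736 to 0.0956. For Nfs1 it lasted only without PIK3CA shRNA replicate 1, and for Lyrm4 only without control replicate 3. Isca2, Nubp1 and Lyrm4 did not pass in the limma fit over all probe sets (adjusted p = 0.0632, 0.0711 and 0.0779).

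**Figure D4:**
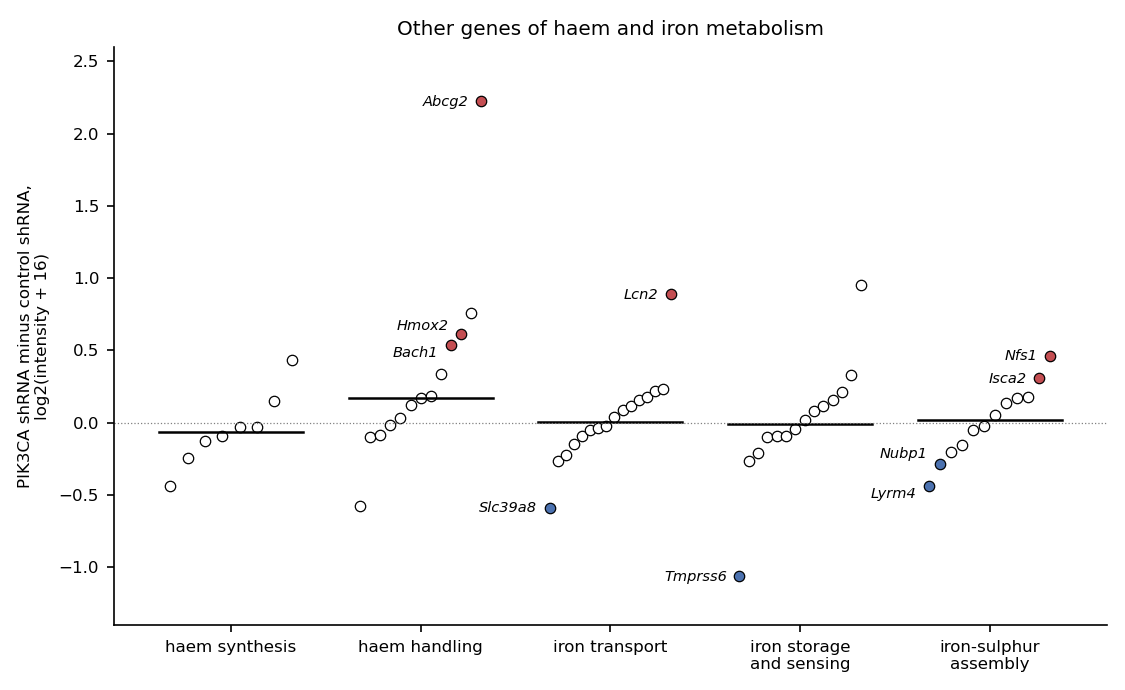
Difference between PIK3CA shRNA and control shRNA (log2(intensity + 16), vertical axis) for 63 haem and iron genes outside the 9, by role; circles are genes, filled where past adjusted p 0.05 (red higher, blue lower), and bars are medians. Abcg2 stands highest at 2.22 and Tmprss6 lowest at -1.06, and no gene of haem synthesis is filled.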

How the data were processed

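The authors' deposited values are linear intensities per probe set, from 0.0359 to 17918.5. The lowest and highest values are the same on all 6 arrays, which points to a normalization across arrays before deposit, by a method not given in the sources used here. Each array was scaled to a common median of its probe sets and taken to log2(intensity + 16). The tests left out 64 Affymetrix control probe sets. Names came from the platform annotation and a RefSeq table (GRCm38.p6): 34958 probe sets had 1 symbol, 932 several and 9211 none listed. A gene was represented by its probe set with the highest mean.

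Differences were fitted in R 4.3.3 with limma 3.58.1 (lmFit and eBayes, two-sided) and p-values adjusted by Benjamini-Hochberg over 18193 genes, or over 45037 probe sets where said. Intervals are limma's at 95%. The steps were tested on simulated data.

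The members and lists were chosen with earlier results of these data known. Named genes were the 9 members, fixed haem and iron genes, every listed haem or iron gene past the threshold (the rule allows 12) and Pik3ca. The 3 genes closest to Hebp1 under the brightness filter and the nearest neighbours of members past the threshold were also named. Marker genes outside this rule are named only as what a list holds. Promoters came from RefSeq, and 7 of 9 members were searched. Slc40a1 had no promoter entry. Fech was left out because it lies on chromosome 18, which was left out for members but not for the windows of all genes. Alternatives covered the replicate block, scaling, probe set choice, dim genes, weights, prior, constant, threshold, chromosome medians and each sample left out.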

Additional observations from a re-analysis of the deposited data

How the results depend on the processing

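The replicate numbers did not pair the samples: same-numbered samples' deviations from their group means correlated at 0.05, -0.02 and -0.02. With the number as a replicate block, counts of calls were 413 for all genes, 1 for the 9 members, 1 for their probe sets and 2 for the other haem and iron genes, against 2093, 3, 2 and 10 without it. The call left among members and their probe sets is Hebp1, chosen for its rise. Every count for the 9 members, here and below, includes Hebp1, so a members' count of 1 is Hebp1 alone. Alas1 (limma adjusted p = 0.111) and Urod (0.113) lost their calls. Abcg2 and Hmox2 are the 2 left among the others; Bach1 (0.0575) and Slc39a8 (0.0716) lost theirs. At adjusted p 0.01 they were 636, 1, 1 and 3. Leaving out 1 sample gave 945 to 1138, 1 to 2, 1 to 2 and 5 to 6. The members' count was also 1 with the mean of probe sets or with the most variable one (by interquartile range), and their probe set count was 1 with a constant of 1. The other haem and iron genes counted 20 with dim genes left out (3156 over all genes) and 22 with an intensity trend and robust prior (3192). They counted 6 with chromosome medians taken out (1567 over all genes). Pik3ca kept its direction and call in every alternative run. The direction of Hebp1, a gene chosen for its rise, also stayed and is given as a description only.

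Some signs turned. Leaving out 1 sample moved Hebp2 from -0.40 to 0.13, Alad from -0.27 to 0.17, Fech from -0.057 to 0.094, Slc11a2 from -0.21 to 0.096, Gprc5d from -0.43 to 0.021, Gm19434 from -0.024 to 0.24, Tlr9 from -0.62 to 0.14 and Zswim5 from -0.031 to 0.28. Hebp2 and Alad turned without PIK3CA shRNA replicate 3. With the mean of probe sets, Fech was -0.074, Slc11a2 0.011 and Zswim5 -0.38. By the most variable probe set, Tfrc was 0.0025, Nfs1 -0.032 and Zswim5 -0.86. Fech was -0.0039 with array weights, and Gm19434 -0.075 with chromosome medians taken out. The cause was not tested. Depth cannot be judged, since the table holds no detection calls and no background.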
